A study of Mus musculus with 48 samples.

Results

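The mRNAs followed here in mouse cortex were the 4 genes of calcium/calmodulin-dependent protein kinase II (CaMKII), namely Camk2a, Camk2b, Camk2d and Camk2g, and 4 others known from neuronal dendrites, Camk2n1, Ddn, Nrgn and Map2. They were taken from the deposited table by matching its Ensembl identifiers to these gene symbols, and all 8 of 8 symbols were found among the 48526 genes of the table. RNA was sequenced from the cortex of 12 wild-type male C57BL/6JRj mice, 4 at each of 3 ages, without any treatment. The ages were 3 weeks (3w, mice 187 to 190), 5 months (5m, mice 191 to 194, given as 6 months in the sample titles) and 18 months (18m, mice 195 to 198). Each mouse gave 4 libraries, so that the 48 libraries form 12 groups of 4. Total homogenate (TH) is the whole cortex lysate, and synaptosomes (SYN) are pinched-off synaptic endings collected from a sucrose gradient. From each of them, total RNA (input_TH, input_SYN) and the RNA of the ribosome-containing pellet under a sucrose cushion (SC_TH, SC_SYN) were sequenced, the lysis buffer of the cushion holding cycloheximide. The cushion pellet holds any complex heavy enough to pass through, and bound ribosomes were not counted per mRNA. The comparisons ask which mRNAs are more abundant at the synapse than in the whole tissue, which are recovered with ribosomes, and whether either changes with age.

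CaMKII is a multi-subunit kinase that is switched on by calcium-bound calmodulin and can then keep itself active by autophosphorylation, and it is required for long-term potentiation at excitatory synapses. The alpha and beta subunits make up most of the enzyme in the forebrain, while the delta and gamma subunits are found in many tissues. Neurons send a subset of mRNAs, that of the alpha subunit among the best known, out into dendrites, where they can be translated near synapses, with localization signals that often lie in the 3′ UTR. Camk2n1 encodes an inhibitor protein of the kinase, Ddn encodes dendrin, a protein of the postsynaptic density, Nrgn encodes neurogranin, which binds calmodulin when calcium is low, and Map2 encodes a microtubule-associated protein of the soma and dendrites.

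On the GRCm38 build, Camk2a (ENSMUSG00000024617) lies on chromosome 18 at 60925618 to 60988152 on the plus strand, Camk2b (ENSMUSG00000057897) on chromosome 11 at 5969644 to 6066362 on the minus strand, Camk2d (ENSMUSG00000053819) on chromosome 3 at 126596302 to 126846326 on the plus strand, and Camk2g (ENSMUSG00000021820) on chromosome 14 at 20734875 to 20794088 on the minus strand. Camk2n1 (ENSMUSG00000046447) lies on chromosome 4 at 138454314 to 138460123 on the plus strand, Ddn (ENSMUSG00000059213) on chromosome 15 at 98803777 to 98809490 on the minus strand, Nrgn (ENSMUSG00000053310) on chromosome 9 at 37544492 to 37552904 on the minus strand, and Map2 (ENSMUSG00000015222) on chromosome 1 at 66175273 to 66442583 on the plus strand. Reads were counted over exons without regard to strand. Ddn shares 177 exonic bases with the antisense gene B130046B21Rik (3 to 92 reads per library) and Map2 shares 124 with the antisense gene Gm10558 (0 to 17 reads per library), so reads of these stretches cannot be told apart by gene. The annotated 3′ UTR was longer than the median of 964 bases over 20815 protein-coding genes in 7 of the 8 mRNAs. It measured 3591 bases in Camk2d, 3576 in Map2, 3372 in Camk2a, 3335 in Camk2n1, 2184 in Camk2b, 1990 in Camk2g and 1500 in Ddn, against 863 in Nrgn. Camk2d, with the longest 3′ UTR of the 8, was lower in SYN than in TH, and Camk2a, with one nearly as long, was higher. Whether 3′ UTR length is related to the SYN against TH values was not tested.

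Libraries held between 1780267 and 18590040 counted reads, with the lowest median in input_SYN (3756951) and the highest in input_TH (10815833.5). Every member was well covered: the raw count ranged from 68 to 2024 reads per library for Camk2d, the least abundant, and from 9132 to 126921 for Camk2a. The 4 fractions differed in composition, and this bears on the scale of every SYN against TH value. Malat1, Meg3, Miat, Neat1 and Snhg11, RNAs that are retained in the nucleus, summed to 16890 to 20440 CPM (counts scaled to a common library size) in input_TH and to 853.4 to 4131 CPM in SYN libraries. In SC_TH the same sum was 10270 to 13440 CPM at 3w, 7445 to 10600 at 5m and 5340 to 6288 at 18m, so it moved with age in that fraction. In SC_SYN the sum moved the other way, at 853.4 to 1417 CPM at 3w, 1063 to 2153 at 5m and 2204 to 3421 at 18m. All 5 of 5 astrocyte markers (Aqp4, Gfap, Slc1a3, Aldh1l1, Gja1) were higher in SYN than in TH at each age in both library types, with a sum of 844.2 to 1009 CPM in SC_TH and 2499 to 3062 CPM in SC_SYN at 5m. Of 5 microglia markers, 4 or 5 were higher in SYN (3 to 5 with library-size scaling), and the 5 oligodendrocyte markers were all higher in SC_SYN than in SC_TH (4, 2 and 2 of 5 at 3w, 5m and 18m with library-size scaling). Of 5 endothelial markers, 4 were lower in SYN at each age in both library types, and 1 was higher in SC_SYN than in SC_TH. With library-size scaling 0 endothelial markers were higher, 4 were lower in SC and 5 in the input. Cldn5 was at 0 in 2 libraries and Ly6c1 at 0 in 5. In the input, 3 of the 5 oligodendrocyte markers were higher in SYN at each age, and 0, 0 and 2 were lower at 3w, 5m and 18m. With library-size scaling, 3, 2 and 2 of these markers were higher in the input and 2 were lower at each age. Of 5 inhibitory neuron markers, 2 were higher and 3 lower in SC_SYN than in SC_TH at 5m. The part of these differences in the values of the 8 mRNAs was not tested. In such bulk samples, fewer cells of a type and less RNA per cell cannot be told apart.

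Per exonic length, Camk2a and Nrgn were the most abundant of the 8 mRNAs in input_TH, SC_TH and SC_SYN. Camk2d was the least abundant in every fraction. To compare genes, CPM were divided by exonic length in kilobases (RPKM). In input_SYN, Ddn lay between Camk2a and Nrgn at 5m and 18m. There, Camk2a, Ddn and Nrgn had 871.9, 757.1 and 643.6 RPKM at 5m and 788.2, 611.7 and 552.4 at 18m. At 5m, the mean of 4 mice in input_TH was 539.5 RPKM for Nrgn, 293.0 for Camk2a, 216.1 for Camk2n1 and 210.8 for Ddn, followed by 77.59 for Camk2b, 70.7 for Map2, 22.79 for Camk2g and 4.639 for Camk2d. Camk2n1 and Ddn were neighbours that did not differ beyond their spread. In SC_SYN at 5m the order was Camk2a (954.3 RPKM), Nrgn (935.6), Ddn (587.3), Camk2n1 (301.9), Map2 (129.9), Camk2b (56.58), Camk2g (20.66) and Camk2d (2.266), and the first 2 lay within their spread of each other. Camk2b and Map2 thus changed places between the input of TH and the other fractions, while Camk2g and Camk2d were the last 2 in each fraction at 5m. The length used is that of all annotated exons of a gene merged, 22493 bases for Camk2d and 1453 for Nrgn, whichever of them the cortex uses.

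**Figure D1:**
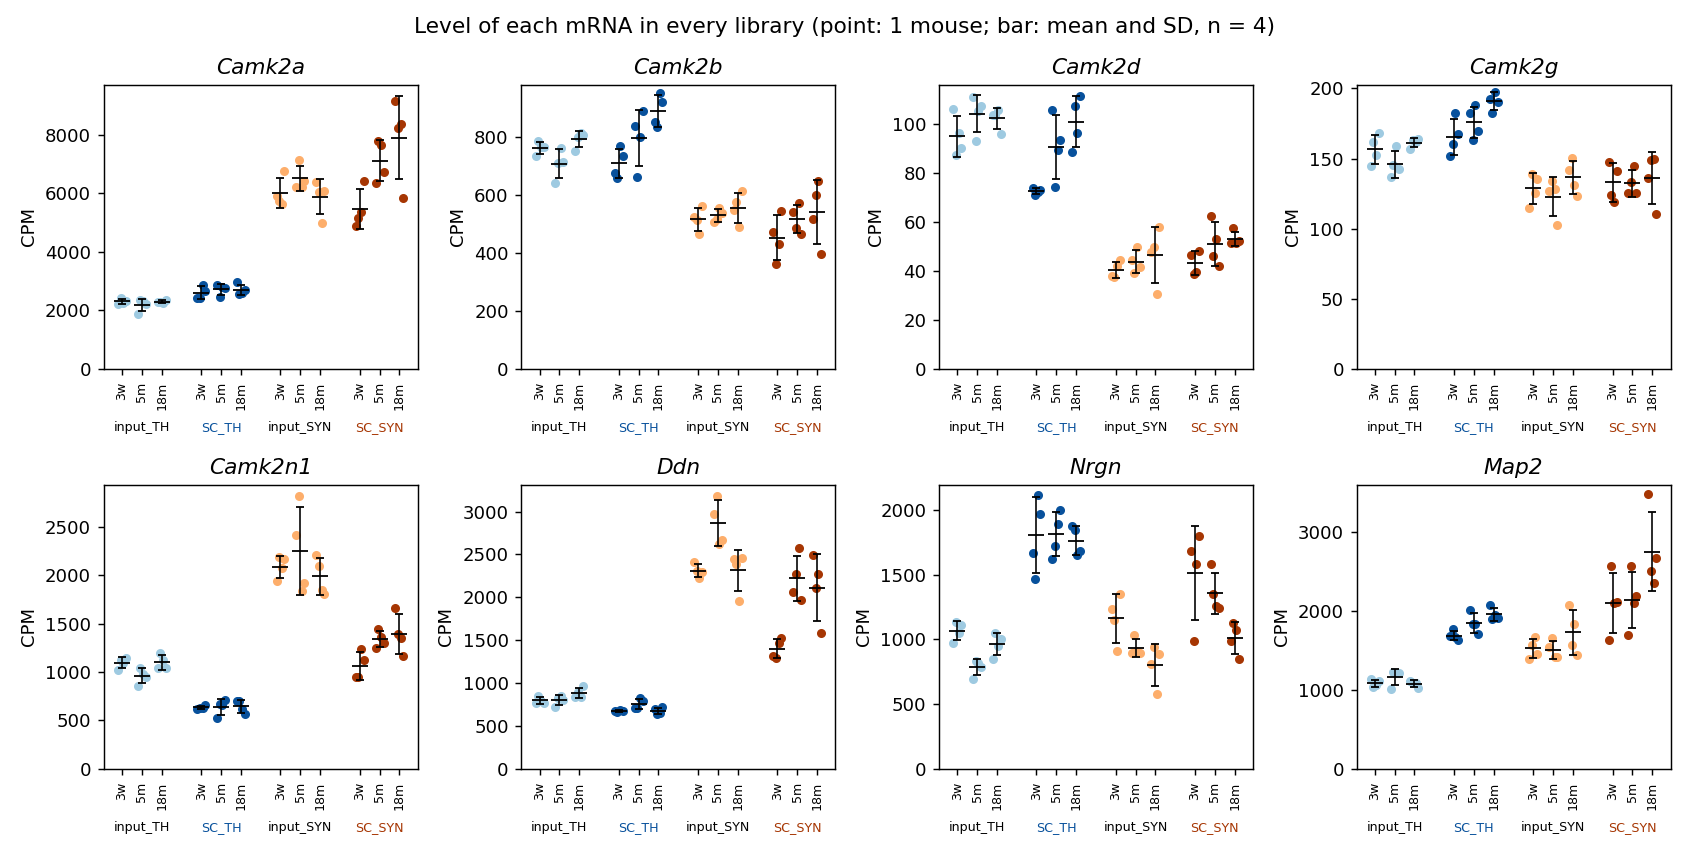
Level of each of the 8 mRNAs in CPM (linear axis from 0) in every library, in the order input_TH, SC_TH, input_SYN and SC_SYN with 3w, 5m and 18m in each; a point is 1 mouse, the black bar the mean and SD of 4. For Camk2a, SYN libraries sit between 4890 and 9161 CPM and TH libraries between 1877 and 2962 CPM, whereas for Camk2b the SYN points lie below most TH points.

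The CaMKII subunits parted ways between tissue and synapse. Camk2a was higher in SC_SYN than in SC_TH at each age, and Camk2b, Camk2d and Camk2g were lower. At 5m, Camk2a stood at 2872, 2454, 2784 and 2772 CPM in SC_TH and at 6345, 7782, 7640 and 6729 CPM in SC_SYN of mice 191 to 194. Camk2b stood at 840.4, 664.0, 799.7 and 889.4 CPM in SC_TH and at 541.3, 485.2, 571.7 and 467.1 CPM in SC_SYN of the same mice. For both genes the 2 groups did not overlap, with Camk2a high and Camk2b low in all 4 synaptic libraries. The change of Camk2a was 2.17-fold at 3w, 2.73-fold at 5m (log2 fold change 1.45, 95% interval 1.22 to 1.67, adjusted p = 7.74e-11, edgeR's quasi-likelihood test with Benjamini-Hochberg adjustment over all genes tested) and 3.05-fold at 18m. Camk2b was lower by a log2 fold change of −0.60 at 3w, −0.57 at 5m (−0.82 to −0.33, edgeR adjusted p = 0.000271) and −0.66 at 18m. Camk2d, at 74.22 to 105.7 CPM in SC_TH and 41.95 to 62.33 CPM in SC_SYN at 5m, had log2 fold changes of −0.70, −0.78 and −0.86 at 3w, 5m and 18m. Camk2g was the least changed, at −0.27, −0.35 and −0.43, and its call at 3w was lost without mouse 189 (−0.17, edgeR adjusted p = 0.17).

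Of the 8 mRNAs, 7 passed the test in SC_SYN against SC_TH at 3w (4 higher, 3 lower), 7 at 5m (3 higher, 4 lower) and 8 at 18m (4 higher, 4 lower). Among all genes tested, 63.5% passed at 3w, 67.8% at 5m and 62.1% at 18m, so that passing the test is common in this comparison. In input_SYN against input_TH, 6, 7 and 6 members passed at 3w, 5m and 18m, where 71.0%, 72.7% and 72.3% of all genes did. In the inputs, Camk2a was also higher and Camk2b and Camk2d lower, while Camk2g did not pass. Camk2a was higher in input_SYN by a log2 fold change of 1.51 at 3w, 1.73 at 5m (1.58 to 1.88, edgeR adjusted p = 2.26e-17) and 1.46 at 18m, and Camk2d was lower by −1.12, −1.10 and −0.998. Camk2b was lower by −0.44, −0.26 and −0.41. Camk2g had values of −0.16 (−0.32 to 0.01), −0.10 (−0.26 to 0.07) and −0.14 (−0.30 to 0.02) that did not pass with edgeR, and it passed as lower at each age with DESeq2 and with library-size scaling (−0.73, −0.75 and −0.71).

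All these values rest on TMM scaling, which centres a trimmed mean of the log ratios on 0 and assumes that most genes do not differ. Here most genes did pass the test, 67.8% in SC and 72.7% in the input at 5m, so that assumption is in doubt. Scaling by library size instead moved the median over all genes in SC_SYN against SC_TH at 5m from −0.09 to −0.68 and in input_SYN against input_TH from −0.18 to −0.83, and the share of higher genes among those called fell from 47.3% to 23.4% and from 44.8% to 23.8%. Camk2a kept its direction and its call on that scale, with log2 fold changes in SC of 0.57, 0.86 and 1.08 at 3w, 5m and 18m, and so did Camk2b (−1.15, −1.16 and −1.19), Camk2d (−1.25, −1.37 and −1.39) and Camk2g (−0.82, −0.94 and −0.96). Map2 in both library types and Nrgn in the input, described below, did not keep theirs.

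**Figure D2:**
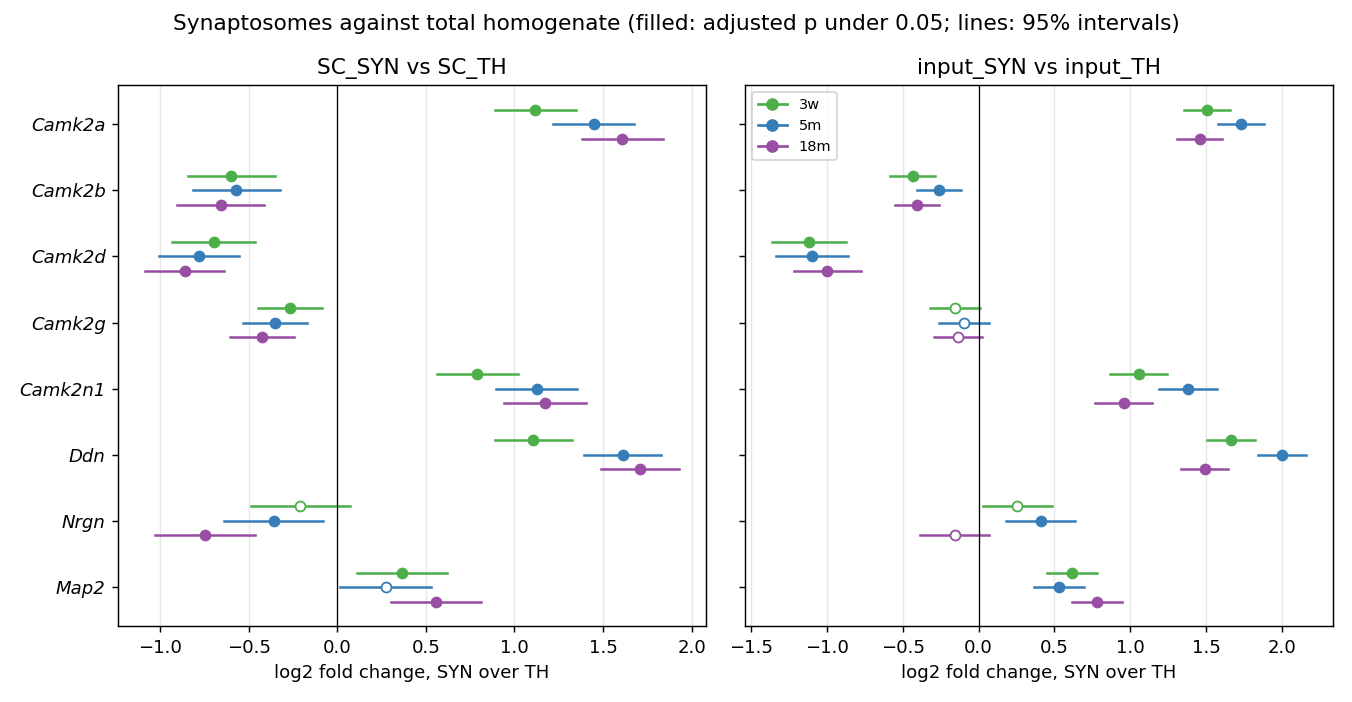
log2 fold change of SYN over TH for each mRNA, in the cushion pellet (left) and the input (right), with 1 point per age, 95% intervals as lines and filled points where the adjusted p was under 0.05. Camk2a, Ddn and Camk2n1 lie right of 0 at all 3 ages in both panels, Camk2b and Camk2d lie left of it, and Nrgn lies left in the cushion pellet and on both sides in the input; with library-size scaling Map2 moves left of 0 at 3w and 5m in SC and at 5m in the input, and Nrgn at 3w and 5m in the input.

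Ratios within a library do not depend on the scaling between libraries. Counts of Camk2a per count of Camk2b were 3.086 ± 0.158 (SD, n = 4) in input_TH at 5m, 3.428 ± 0.239 in SC_TH, 12.3 ± 1.1 in input_SYN and 13.88 ± 1.81 in SC_SYN. The highest of the 24 TH libraries had 3.753 and the lowest of the 24 SYN libraries 9.936, so the compartments did not overlap at any age. Per exonic length, Camk2a made up 73.56% ± 1.16 of the reads of the 4 CaMKII genes in input_TH at 5m and 91.65% ± 0.598 in input_SYN. In the cushion pellets its share was 75.42% ± 0.836 in SC_TH and 92.27% ± 0.821 in SC_SYN. Between input_TH and SC_SYN, which differ in both compartment and library type, Camk2b went from 19.52% ± 0.688 to 5.504% ± 0.681. Camk2g went from 5.741% ± 0.326 to 2.003% ± 0.0995, and Camk2d from 1.177% ± 0.181 to 0.2215% ± 0.0521. At 18m the Camk2a to Camk2b ratio was 3.045 ± 0.318 in SC_TH and 14.76 ± 2.07 in SC_SYN, and at 3w it was 3.66 ± 0.0693 and 12.19 ± 1.59.

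**Figure D3:**
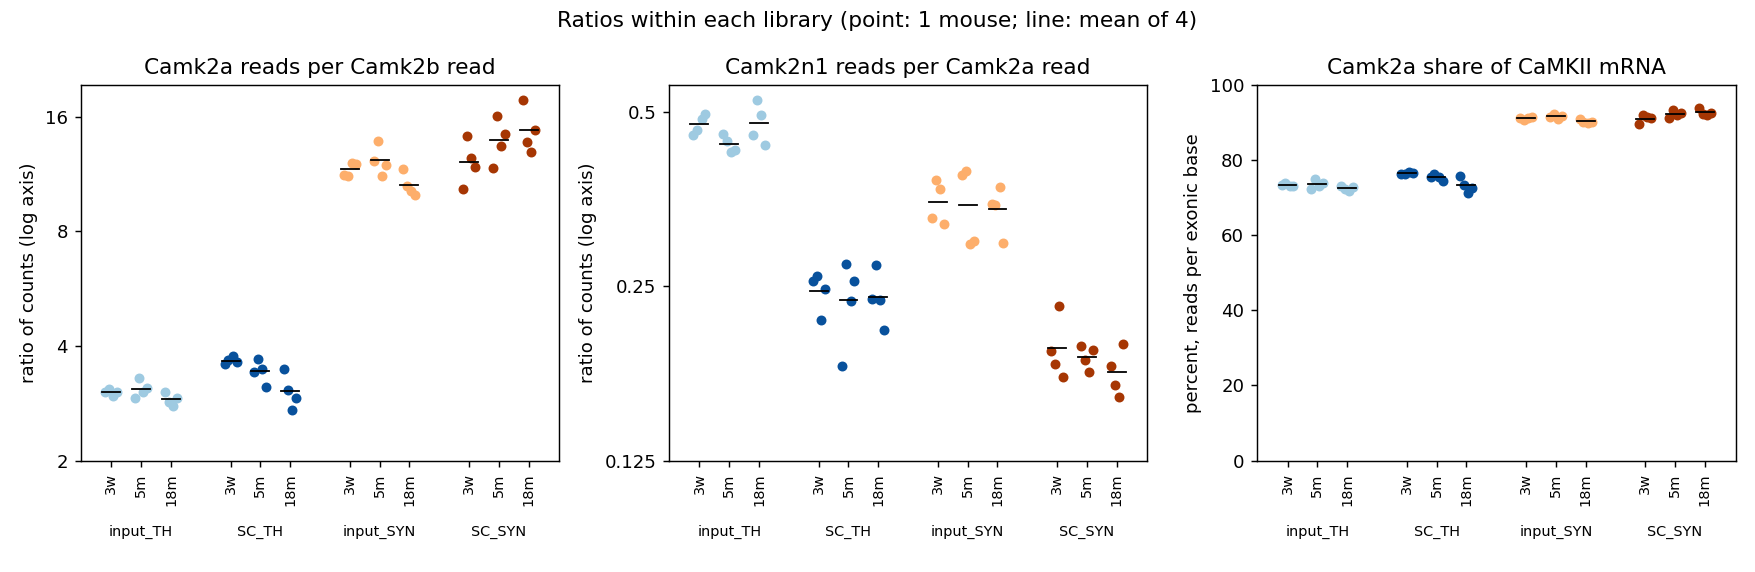
Ratios within each library, in the same order of fractions and ages; a point is 1 mouse and a line the mean of 4. Left, counts of Camk2a per count of Camk2b (log axis), at most 3.753 in TH and at least 9.936 in SYN; middle, counts of Camk2n1 per count of Camk2a (log axis), lower in the cushion pellet than in the input of each compartment; right, the share of Camk2a among the 4 CaMKII genes per exonic length.

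Camk2n1 and Ddn were higher in SYN than in TH, as Camk2a was. For Ddn at 5m, SC_TH libraries of mice 191 to 194 held 704.7, 706.4, 823.9 and 789.0 CPM and SC_SYN libraries 2066, 2277, 2571 and 1969 CPM. For Camk2n1 they held 523.1, 671.0, 656.8 and 706.4 CPM and 1251, 1451, 1361 and 1304 CPM. Neither gene overlapped between the compartments, and all 4 synaptic libraries were high. The log2 fold change of Ddn in SC was 1.11 at 3w, 1.61 at 5m (1.39 to 1.83, edgeR adjusted p = 6e-12) and 1.71 at 18m, and in the input it was 1.67, 2.00 and 1.49. That of Camk2n1 in SC was 0.79, 1.13 (0.90 to 1.35, edgeR adjusted p = 7.16e-09) and 1.17, and in the input 1.06, 1.38 and 0.96. With library-size scaling both stayed higher in SYN in each comparison, and Camk2n1 in SC at 3w no longer passed (0.24, edgeR adjusted p = 0.061).

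Nrgn and Map2 are further mRNAs for dendritic proteins, and neither followed Camk2a closely. Nrgn was lower in SC_SYN than in SC_TH. At 18m, mice 195 to 198 had 1880, 1845, 1653 and 1682 CPM of Nrgn in SC_TH and 986.0, 1129, 1074 and 845.7 CPM in SC_SYN, with no overlap. Its log2 fold change in SC was −0.21 (−0.49 to 0.07) at 3w, −0.36 (edgeR adjusted p = 0.0291) at 5m and −0.75 (−1.03 to −0.47, edgeR adjusted p = 8.32e-05) at 18m. The call at 5m was lost without mouse 192 (edgeR adjusted p = 0.0641), 193 (0.132) or 194 (0.18). With library-size scaling Nrgn passed as lower in SC at each age (−0.76, −0.95 and −1.28). In the input, Nrgn was higher in SYN at 5m (0.41, edgeR adjusted p = 0.00271), but with library-size scaling it was lower (−0.24, adjusted p = 0.0427). At 3w the input value was 0.25 (edgeR adjusted p = 0.0526), it passed with mouse as a block (0.24, adjusted p = 0.0267), and it was −0.31 with library-size scaling; at 18m it was −0.16 (−0.39 to 0.07). At that age it passed as lower with DESeq2 (−0.26, adjusted p = 0.0397) and with library-size scaling (−0.73).

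Map2 was higher in input_SYN than in input_TH by a log2 fold change of 0.62 at 3w, 0.53 at 5m and 0.78 at 18m, and with library-size scaling these became 0.05, −0.12 and 0.21. In SC its values were 0.37 (edgeR adjusted p = 0.0173), 0.27 (0.02 to 0.53, adjusted p = 0.0675) and 0.56 (0.30 to 0.81, adjusted p = 0.000715), which became −0.18, −0.31 and 0.03 with library-size scaling. At 5m, Map2 stood at 2003, 1835, 1827 and 1704 CPM in SC_TH and at 1696, 2564, 2101 and 2184 CPM in SC_SYN of mice 191 to 194. Mouse 191 had the lowest synaptic value and the highest SC_TH value, the groups overlapped, and without this mouse the value passed (0.40, edgeR adjusted p = 0.0171). At 3w the call was lost without mouse 188 (edgeR adjusted p = 0.102), 189 (0.0544) or 190 (0.0979). The direction of Map2 between compartments thus depends on the scaling, and its ratio to Camk2a within libraries was lower in SYN: 0.6791 ± 0.057 counts per count of Camk2a in SC_TH and 0.2991 ± 0.0324 in SC_SYN at 5m. The like ratio of Nrgn to Camk2a was 0.6683 ± 0.0708 and 0.1932 ± 0.0387.

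Recovery with the cushion pellet differed among the 8 mRNAs, with Nrgn and Map2 higher in SC_TH than in input_TH at each age and Camk2n1 lower. In SC_TH against input_TH, 6 members passed at 3w, 6 at 5m and 7 at 18m, against 52.8%, 62.1% and 64.0% of all genes tested. Nrgn rose most, by log2 fold changes of 0.89, 1.30 (1.10 to 1.49, edgeR adjusted p = 1.62e-11) and 0.93 at 3w, 5m and 18m, from 696.0 to 835.9 CPM in input_TH to 1623 to 2004 CPM in SC_TH at 5m. Map2 rose by 0.76, 0.75 and 0.91, and Camk2a by 0.29, 0.40 and 0.29. Camk2g rose by 0.20, 0.35 and 0.29, its call at 3w being lost without mouse 189 (0.14, edgeR adjusted p = 0.115), and Camk2b rose at 5m (0.26) and 18m (0.22) with a value of 0.02 at 3w. Camk2n1 was lower in the pellet at each age, by −0.67, −0.50 (−0.67 to −0.33, edgeR adjusted p = 2.25e-05) and −0.71. Ddn was lower at 18m (−0.34, edgeR adjusted p = 8.16e-05), with values of −0.12 at 3w and 0.01 at 5m that did not pass and changed sign with the processing, and Camk2d was lower at 3w (−0.27), a call that was lost without mouse 187 (−0.22, edgeR adjusted p = 0.0631). The nuclear RNAs were lower in SC_TH than in input_TH in 4 of 5 at 3w and 5 of 5 at 5m and 18m, and their part in these values was not tested.

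In SC_SYN against input_SYN, 3, 4 and 3 members passed at 3w, 5m and 18m, where 18.5%, 20.0% and 12.6% of all genes did. Camk2n1 was again lower in the pellet, by −1.02 at 3w, −0.81 at 5m (−1.06 to −0.56, edgeR adjusted p = 7.78e-05) and −0.54 at 18m. At 5m its input_SYN libraries held 2423, 2825, 1843 and 1924 CPM and its SC_SYN libraries 1251, 1451, 1361 and 1304 CPM for mice 191 to 194. All 4 pellet values lay below all 4 input values. Ddn was lower at 3w (−0.76, edgeR adjusted p = 7.4e-05) and at 5m (−0.43, adjusted p = 0.00964, lost without mouse 191, 0.0778, or 192, 0.0602), with −0.16 (−0.38 to 0.07) at 18m. Map2 was higher at all 3 ages (0.42, 0.44 and 0.64), but its calls at 3w (edgeR adjusted p = 0.0475) and 5m (0.0364) were lost when single mice were left out, 8 of 12 at 3w, with adjusted p of 0.0533 to 0.254, and 5 of 12 at 5m, with 0.0514 to 0.148. Nrgn was higher at 5m (0.48, edgeR adjusted p = 0.0324), a call lost without any single one of mice 191 to 194 (adjusted p of 0.0673 to 0.202). Camk2a had −0.18 and 0.07 at 3w and 5m and passed at 18m (0.40, edgeR adjusted p = 0.0254), which was lost without mouse 195 (0.113), 196 (0.103) or 197 (0.136). Camk2b, Camk2d and Camk2g had values between −0.23 and 0.15 that did not pass at any age.

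**Figure D4:**
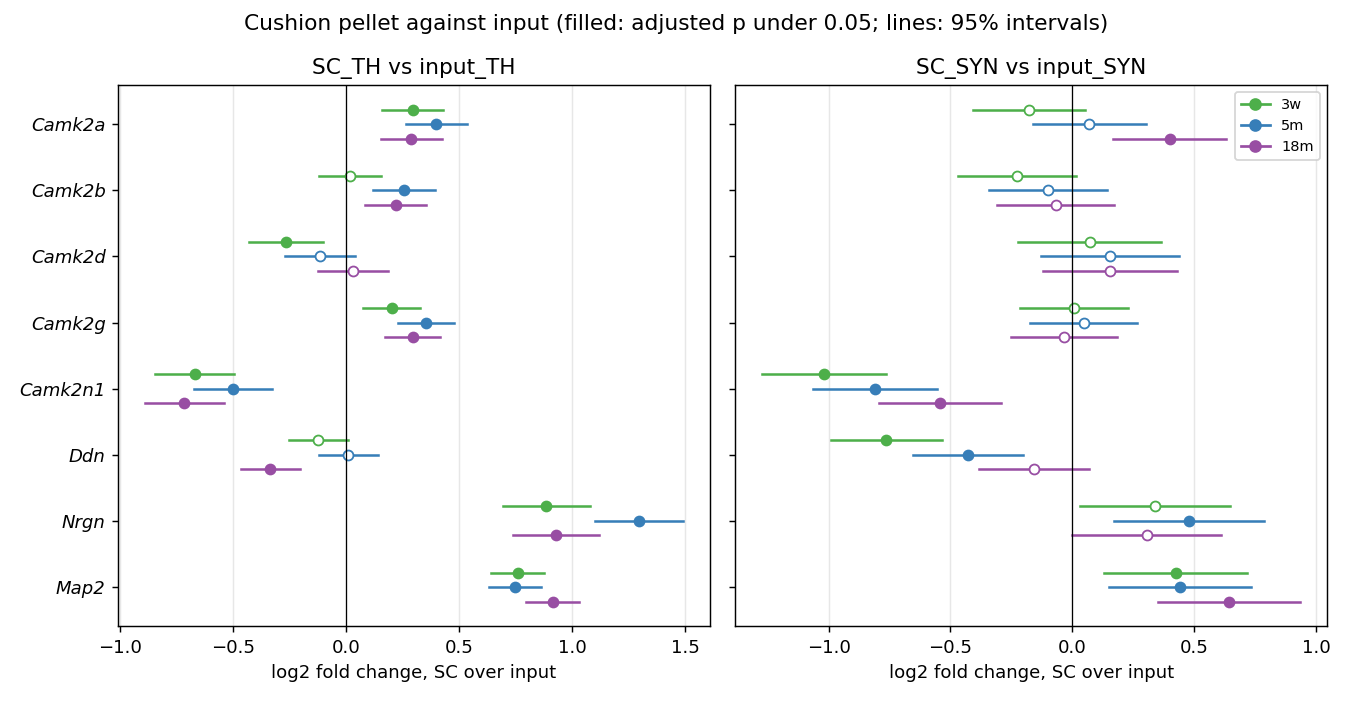
log2 fold change of the cushion pellet over the input for each mRNA, in TH (left) and SYN (right), with 1 point per age, 95% intervals as lines and filled points where the adjusted p was under 0.05. Camk2n1 lies left of 0 at all ages in both panels, from −0.50 to −0.71 in TH and from −0.54 to −1.02 in SYN, while Map2 lies right of 0 throughout and Nrgn reaches 1.30 in TH.

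Counts of Camk2n1 per count of Camk2a gave the same order on a scale that needs no normalization between libraries. At 5m the ratio was 0.4397 ± 0.0148 (SD, n = 4) in input_TH and 0.2366 ± 0.0394 in SC_TH, and 0.3448 ± 0.0548 in input_SYN and 0.1889 ± 0.00848 in SC_SYN. It was lower in the pellet than in the input of the same compartment at each age, without overlap between the 4 libraries of a group, the highest pellet value in TH being 0.2735 and the lowest input value 0.426. In SYN the highest pellet value was 0.2308 and the lowest input value 0.296.

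Most age differences of the 8 mRNAs that passed were in input_TH. There, 2 passed from 3w to 5m, against 11.8% of all genes tested: Nrgn fell (log2 fold change −0.45, −0.59 to −0.31, edgeR adjusted p = 0.000431) and Camk2n1 fell (−0.20, adjusted p = 0.045). Nrgn stood at 969.8, 1133, 1048 and 1115 CPM in mice 187 to 190 and at 696.0, 835.9, 817.8 and 786.0 CPM in mice 191 to 194, and these groups did not overlap. The call of Camk2n1 was lost when single mice were left out, 8 of 12 in turn (adjusted p of 0.0501 to 0.124). It was also lost with library-size scaling (0.0725) and when the 48 libraries were fitted together (0.439). From 5m to 18m, 5 members rose in input_TH, against 15.5% of all genes: Nrgn (0.33, edgeR adjusted p = 0.00696), Camk2n1 (0.23, adjusted p = 0.0211), Camk2b (0.20, adjusted p = 0.0157), Camk2g (0.18, adjusted p = 0.0387) and Ddn (0.18, adjusted p = 0.0478). For Nrgn, the 18m libraries held 848.2, 1052, 952.4 and 1000 CPM, all above the 5m libraries. The fall and the rise of Nrgn and Camk2n1 share the same 5m libraries, so these steps are not independent of each other. Among the 5m libraries of input_TH, that of mouse 191 held the lowest CPM of each of the 5 mRNAs that rose. Over all genes kept, its log2 CPM also stood further from its group (median Pearson's r of 0.983, against 0.992 to 0.993 for mice 192 to 194). None of these 5 calls held when the 48 libraries were fitted together (adjusted p of 0.201 to 0.345), and with library-size scaling Camk2g and Ddn did not pass (both 0.107). Camk2n1 did not pass without mouse 194 (0.057) or 196 (0.0793), Camk2g without 7 of the 12 mice in turn (0.0505 to 0.0958) and Ddn without 9 of the 12 (0.056 to 0.159).

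In the synaptic cushion pellet, Ddn rose from 3w to 5m, the single member to pass, against 8.05% of all genes. SC_SYN libraries held 1314, 1297, 1470 and 1522 CPM of Ddn at 3w and 2066, 2277, 2571 and 1969 CPM at 5m, with every 5m value above every 3w value. The log2 fold change was 0.63 (0.36 to 0.91, edgeR adjusted p = 0.0148), and without mouse 193 it was 0.56 (adjusted p = 0.0509). Camk2a, at 4890 to 6427 CPM and 6345 to 7782 CPM, had 0.35 (0.07 to 0.64, edgeR adjusted p = 0.139), and Camk2n1 had 0.31 (0.05 to 0.56, adjusted p = 0.158); both passed when the 48 libraries were fitted together (0.00253 and 0.0198). The other members had values between −0.19 for Nrgn and 0.20 for Camk2d. From 5m to 18m no member passed in SC_SYN with edgeR or DESeq2, 2 had an unadjusted p under 0.05, and 0.0140% of all genes passed. Nrgn had −0.42 (−0.74 to −0.09, edgeR adjusted p = 0.235), Map2 0.38 (0.05 to 0.71, adjusted p = 0.268) and Camk2a 0.16 (−0.12 to 0.45), the first 2 passing when the 48 libraries were fitted together (0.0308 and 0.0456). Mouse 198 had the lowest Camk2a of the 18m group, at 5852 CPM against 8248 to 9161 CPM in the other 3.

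In SC_TH, Camk2d rose from 3w to 5m (0.30, 0.12 to 0.48, edgeR adjusted p = 0.0337), against 17.9% of all genes, from 71.24 to 74.02 CPM at 3w to 74.22 to 105.7 CPM at 5m, and 6 of the 12 mice were each needed for the call. It was also lost with library-size scaling (edgeR adjusted p = 0.0524) and when the 48 libraries were fitted together (0.0758). No member passed from 5m to 18m in SC_TH (2.17% of all genes), from 3w to 5m in input_SYN (3.22%) or from 5m to 18m in input_SYN (0.139%) with edgeR, where 1, 2 and 1 members had an unadjusted p under 0.05, and DESeq2 called 0, 1 (Ddn, 0.30, adjusted p = 0.0364) and 0. Values in these 3 comparisons ran from −0.16 to 0.16, from −0.33 to 0.30 and from −0.33 to 0.17. All 5 oligodendrocyte markers fell from 3w to 5m in all 4 fractions, their sum going from 4873 to 6278 CPM to 1913 to 2286 CPM in input_TH, and the part of this in the age values was not tested.

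**Figure D5:**
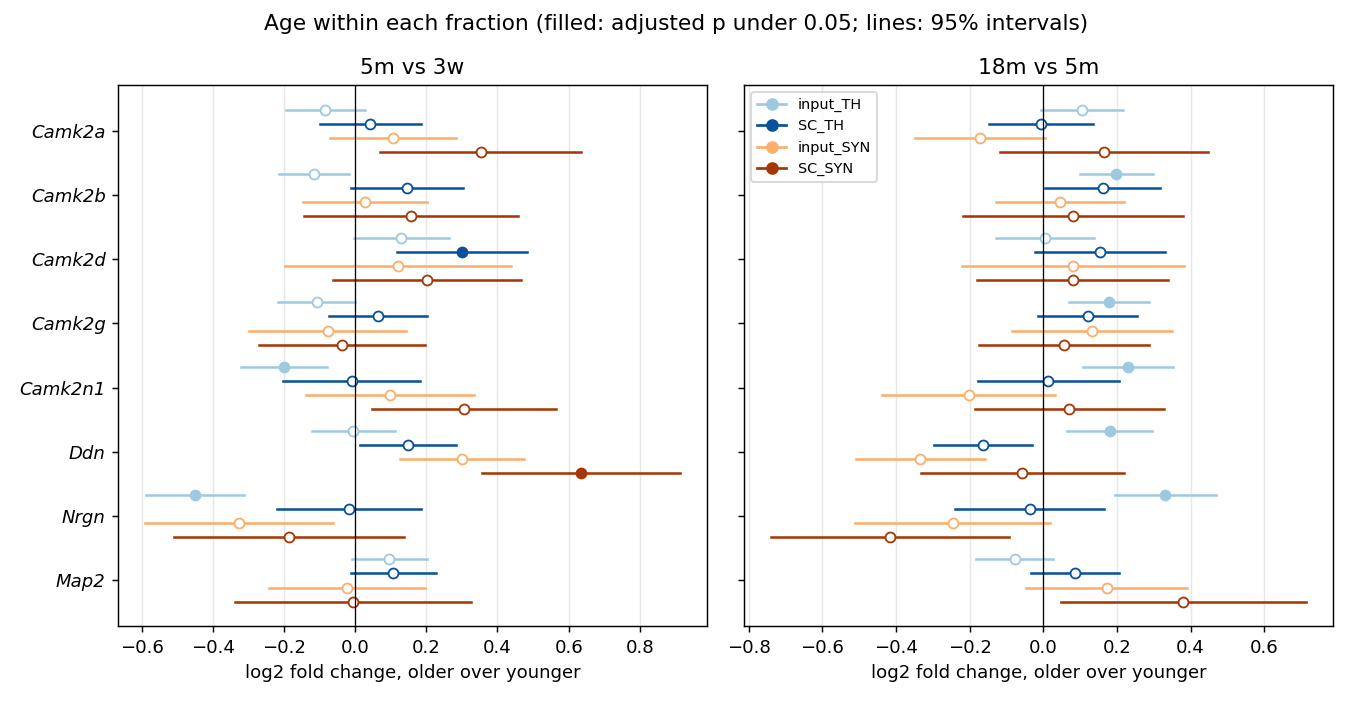
log2 fold change with age within each fraction for each mRNA, from 3w to 5m (left) and from 5m to 18m (right), with 1 point per fraction, 95% intervals as lines and filled points where the adjusted p was under 0.05. The filled points are Nrgn and Camk2n1 in input_TH, Camk2d in SC_TH and Ddn in SC_SYN on the left, and 5 members in input_TH, between 0.18 and 0.33, on the right.

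Whether the SYN against TH difference itself changed with age was tested as a difference of differences. In SC, no member passed from 3w to 5m (0.0301% of all genes; 1 member with an unadjusted p under 0.05) or from 5m to 18m (0% of all genes; 0 members), with edgeR and with DESeq2, so neither step of the Camk2a values given above is shown to differ. The difference between 18m and 3w was not tested. In the input, no member passed from 3w to 5m (0.0224% of all genes; 3 members with an unadjusted p under 0.05; 0 with DESeq2). From 5m to 18m, 1 member passed, against 2.42% of all genes: the excess of Ddn in input_SYN dropped by 0.51 on the log2 scale (edgeR adjusted p = 0.015), from 2.00 to 1.49. This call was lost without mouse 191 (−0.45, adjusted p = 0.0512) or 192 (−0.48, 0.0731), and with mouse as a block Nrgn passed too (−0.59, adjusted p = 0.0152; −0.57 and 0.0606 without the block). For the pellet against the input, no member passed in TH from 3w to 5m (2.33% of all genes; 2 members with an unadjusted p under 0.05) or from 5m to 18m (1.78%; 2 members), DESeq2 calling 0 and 1. The member called in the later step was Ddn, also with mouse as a block (−0.34, adjusted p = 0.043). None passed in SYN from 3w to 5m (0%; 0 members) or from 5m to 18m (0%; 0 members), with edgeR and with DESeq2.

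Other mRNAs that are known from dendrites were compared through a list of 30 genes. This list and those below were chosen with earlier results of these data known, so their counts are no independent check. In SC_SYN against SC_TH, 20, 21 and 22 of the 30 were higher at 3w, 5m and 18m and 3, 3 and 2 lower, with a median log2 fold change of 0.86, 1.10 and 1.11 beside −0.04, −0.09 and −0.07 over all genes tested. Of all genes tested, 63.5%, 67.8% and 62.1% passed at these ages, of which 49.0%, 47.3% and 48.2% were higher. With library-size scaling, 15, 17 and 17 of the 30 were higher and 9, 9 and 6 lower. At 5m the largest rises were those of Shank1, a scaffold of the postsynaptic density (1.99), and Kif5a, a kinesin motor (1.958), and the largest falls those of Cpeb1, which binds 3′ UTRs and controls polyadenylation (−1.25), and Fmr1, the fragile X RNA-binding protein (−0.58). In SC_SYN from 3w to 5m, 3 of the 30 rose and 0 fell, beside 8.05% of all genes passing: Shank1 (1.02, edgeR adjusted p = 0.00754), Shank3 (1.01, adjusted p = 0.0093) and Dlgap3 (0.59, adjusted p = 0.0458). With library-size scaling 2 rose. From 5m to 18m in input_TH, 9 of the 30 rose and 3 fell, with a median of 0.06. Of all genes tested, 15.5% passed in that step, of which 52.7% rose. With library-size scaling 5 of the 30 rose and 4 fell. The largest rises there were those of Ppp1r9b, which encodes the spine protein spinophilin (0.40), and Psd (0.25), and the largest falls those of Arc, an immediate early gene whose mRNA is sent to active synapses (−1.14), and Gria2, an AMPA receptor subunit (−0.27). In that step Arc was the single gene of the 30 to pass in SC_TH (−1.60) and in input_SYN (−1.80, edgeR adjusted p = 0.011). Of all genes tested, 2.17% and 0.139% passed there.

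A list of 27 genes around CaMKII and calmodulin went in both directions. It held calmodulins, phosphatases, other calmodulin-dependent kinases and their kinase kinases, receptors and inhibitors, among others. In SC_SYN against SC_TH, 2, 3 and 4 of the 27 were higher at 3w, 5m and 18m and 12, 14 and 11 lower, with medians of −0.31, −0.39 and −0.25. The medians and shares passing over all genes are those given above for this comparison. With library-size scaling 23, 24 and 22 of the 27 were lower. In input_SYN against input_TH, 9, 10 and 10 of the 27 were higher and 6, 11 and 4 lower, with medians of 0.03, −0.18 and 0.18 beside −0.18, −0.18 and −0.12 over all genes. Of all genes tested, 71.0%, 72.7% and 72.3% passed in the input, of which 44.6%, 44.8% and 45.5% were higher. With library-size scaling 3 of the 27 were higher at each age and 19, 20 and 18 lower. The NMDA receptor subunits Grin2a (0.80) and Grin2b (0.76) rose most in SC at 5m, and Ppp3r1, the regulatory subunit of calcineurin (−1.35), and Calm2, a calmodulin gene (−1.22), fell most. In SC_TH against input_TH, 17, 19 and 20 of the 27 were higher and 2, 2 and 1 lower, with medians of 0.30, 0.38 and 0.41 beside −0.05, −0.05 and −0.01 over all genes. Of all genes tested, 52.8%, 62.1% and 64.0% passed there, of which 49.5%, 48.2% and 48.9% were higher. With age, Camk4, a nuclear calmodulin-dependent kinase, fell and Camkk1, a kinase that activates it, rose from 3w to 5m in each of the 4 fractions; in SC_SYN Camk4 had −0.99 (edgeR adjusted p = 0.00377) and Camkk1 0.46 (adjusted p = 0.0222). Of 12 genes of the microtubule cytoskeleton to which Map2 belongs, 4, 3 and 3 were higher and 5, 7 and 3 lower in SC_SYN than in SC_TH at 3w, 5m and 18m (medians −0.14, −0.47 and −0.08), with Map6 (1.63) and Map4 (1.07) highest and Map7d2 (−1.16) and Map7 (−0.92) lowest at 5m. With library-size scaling 2, 2 and 3 were higher and 8, 8 and 9 lower. In the input 8, 8 and 9 of the 12 were higher in SYN and 0, 0 and 1 lower (medians 0.39, 0.32 and 0.41), which turned to 3 higher at each age and 7, 7 and 4 lower (medians −0.18, −0.33 and −0.16) with library-size scaling. The shares of all genes passing in SC and in the input are those given above.

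Over the 48 libraries, Camk2a and Ddn varied most alike among the members, with Pearson's r = 0.934 of log2 CPM, followed by Camk2n1 and Ddn with 0.895 and Camk2b and Camk2d with 0.88. Camk2a and Camk2d had −0.866, and Nrgn had −0.132 with Camk2a. These correlations describe mainly the fractions: 4 libraries share a mouse, 12 share a fraction, and depth and composition differ between fractions. Among 9151 genes with a mean of at least 10 CPM, those most like Camk2a were Eef2 (0.983), Arrb1 (0.979) and Hipk2 (0.973), those most like Ddn were Rasl10b (0.992), Tmcc2 (0.988) and Mllt6 (0.988), and those most like Camk2n1 were Atxn7l3 (0.963), Msl1 (0.959) and Slc6a8 (0.958). The genes most like Camk2b were Syn2 (0.965), Apbb2 (0.945) and Arfgef3 (0.943), most like Camk2d Nfx1 (0.966), Pip5k1a (0.949) and Plpbp (0.947), and most like Camk2g Dnm1 (0.904), Arfgef3 (0.895) and Slc25a12 (0.885). Nrgn had lower values, with Mpp2 (0.883), Tubb3 (0.878) and Eif4h (0.877), and Map2 was most like Ghitm (0.94), Ldhb (0.917) and Sdha (0.906).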

How the data were processed

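RNA of 48 libraries from 12 mice was analysed. The authors prepared rRNA-depleted directional libraries with UMI adaptors (their use in counting is not given in the sources used here), demultiplexed with bcl2fastq 2.20.0.422, aligned reads to GRCm38 with TopHat2 2.1 and assigned them to genes with featureCounts, ignoring strand. The deposited values are raw counts. Samples were grouped by the labels as fraction and age. The members and lists were chosen with earlier results of these data known. The test was edgeR 4.0.16 in R 4.3.3, with filterByExpr, TMM, quasi-likelihood test, Benjamini-Hochberg adjustment over all genes, threshold 0.05. The 12 libraries of a fraction were fitted for age, and the 24 of a library type or a compartment for the other comparisons. Intervals are the log2 fold change ± 1.96 SE. CPM used TMM-scaled library sizes, and RPKM the merged exons of GENCODE vM21 (48144 of 48526 identifiers had a symbol).

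Alternatives were DESeq2 1.42.0, library-size scaling, no filter, mouse as a block, a joint fit of all 48 libraries, leaving out each mouse, and removal of a GC content and length trend (loess, span 0.5). The mouse number pairs libraries because the 4 come from 1 animal. Deviations from group means of same-mouse libraries had median correlations of −0.01 to 0.109 over pairs of fractions. No 2 libraries of a group agreed within sampling noise (chi-square per gene of 1.98 to 32.21 over 72 pairs). The libraries of a group are separate mice. Named genes were the 8 members, the 2 list genes with the largest rise and fall among those called, in SC_SYN against SC_TH at 5m and per age comparison (some are given in the text), and the 3 genes with the highest Pearson's r of log2 CPM (prior count 2) per member. The fits were tested on simulated data. The excitatory neuron marker list is not reported here.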

Additional observations from a re-analysis of the deposited data

Results flagged for a closer look

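Among 96 sets of 4 libraries (8 mRNAs in 12 groups), 3 had a library far from the other 3 by Dixon's criterion, where chance gives about 1 in 20. Ddn in input_SYN at 18m was lowest in mouse 197, at 1958 CPM against 2385 to 2459 CPM. Nrgn in input_SYN at 5m was highest in mouse 192, at 1038 CPM against 891.5 to 914.4 CPM. Map2 in input_TH at 5m was lowest in mouse 191, at 1014 CPM against 1205 to 1219 CPM.

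The excess of Ddn in input_SYN over input_TH differed between 18m and 5m by −0.51 on the log2 scale (−0.5076, edgeR adjusted p = 0.015, in a test of the difference itself). The 2 groups of input_SYN libraries did not overlap, at 2616 to 3186 CPM at 5m and 1958 to 2459 CPM at 18m. With GC content and length removed the value was −0.23, and in the joint fit the adjusted p was 0.0574.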

How the results depend on the processing

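Over the 224 member values (8 mRNAs in 28 comparisons), 80 passed the test; of these, 3 changed sign under some alternative, in 4 of 1431 recomputed values. Of the 144 that did not pass, 53 changed sign under some alternative. Age values outside SC_SYN and differences of differences that passed neither in the test nor under an alternative on all mice are not given one by one, a choice made after seeing the data, as was library-size scaling of the lists. Sizes moved more than signs when the GC content and length trend was removed. Of the values followed one by one, 8 then changed sign and 48 shifted by at least the SE of a difference between such values, while 69 shifted by less. Mouse as a block changed no other call among the fraction comparisons than that of Nrgn in the input at 3w. The cause of the changes below was not tested.

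With library-size scaling in SYN against TH, Map2 became −0.18 (SC, 3w), −0.31 (SC, 5m) and −0.12 (input, 5m), and Nrgn −0.31 and −0.24 (input, 3w and 5m); in SC_TH against input_TH, Camk2b at 3w became −0.029, Ddn at 5m −0.087 and Camk2d at 18m −0.021. With the GC content and length trend removed, Nrgn in the input became −0.23 (3w) and −0.25 (5m), Ddn in SC_TH against input_TH 0.028 (3w) and −0.0096 (5m), Camk2d at 5m 0.099, and in SC_SYN Camk2b −0.032 (5m against 3w), Camk2d −0.20 and Ddn 0.19 (18m against 5m). DESeq2 gave −0.0014 for Camk2g in SC_SYN against input_SYN at 3w. Without a filter, Camk2g there at 18m was 0.0036 and Map2 in SC_SYN from 3w to 5m 0.025; the joint fit gave 0.034 for Map2 and 0.0092 for Camk2g in that step.

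Leaving out 1 mouse gave ranges that crossed 0. In SC_SYN from 3w to 5m they were −0.10 to 0.11 for Map2 and −0.086 to 0.023 for Camk2g, and from 5m to 18m −0.16 to 0.050 for Ddn, −0.0057 to 0.19 for Camk2d, −0.045 to 0.14 for Camk2n1 and −0.011 to 0.19 for Camk2b. In SC_TH against input_TH they were −0.015 to 0.068 for Camk2b (3w), −0.0076 to 0.044 for Ddn (5m) and −0.040 to 0.091 for Camk2d (18m). In SC_SYN against input_SYN they were −0.00054 to 0.12 for Camk2d and −0.11 to 0.059 for Camk2g (3w), −0.0074 to 0.090 for Camk2g (5m) and −0.20 to 0.082 for Camk2b (18m).

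Counts of members passing moved as follows. In input_TH they were 1 from 3w to 5m with library size and in the joint fit (leaving out mice, 1 to 2), and 3 from 5m to 18m with library size and 0 in the joint fit (2 to 5). In SC_TH from 3w to 5m they were 0 with library size and in the joint fit (0 to 2), and in input_SYN 1 with DESeq2 and in the joint fit (0 to 1). In SC_SYN the joint fit gave 3 from 3w to 5m (0 to 1) and 2 from 5m to 18m. For the change of the input SYN against TH difference from 5m to 18m they were 2 with DESeq2, no filter or the block, and 0 in the joint fit (0 to 2). For that of SC_TH against input_TH they were 1 without a filter from 3w to 5m (0 to 1) and 1 with DESeq2 or the block from 5m to 18m (0 to 1). SC_SYN against input_SYN at 5m ranged from 1 to 4 without single mice.

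Over all genes, the count passing differed by over 1.5 times in the joint fit in input_TH (2136 and 761 from 3w to 5m, 2808 and 183 from 5m to 18m), input_SYN from 3w to 5m (418 and 895), SC_SYN (1146 and 3464, then 2 and 1457) and SC_SYN against input_SYN at 18m (1799 and 2842), and without a filter from 5m to 18m in SC_TH (356 and 746) and input_SYN (18 and 102). With DESeq2 it did so in SC_SYN (1767 from 3w to 5m, 249 from 5m to 18m) and in input_SYN from 5m to 18m (54). Leaving out 1 mouse gave 1404 to 3389 in input_TH from 5m to 18m, 1653 to 4124 and 84 to 774 in SC_TH, 224 to 625 and 7 to 19 in input_SYN, 558 to 1362 and 0 to 2 in SC_SYN (3w to 5m, then 5m to 18m), and 1558 to 2752, 1643 to 2973 and 968 to 1820 in SC_SYN against input_SYN at 3w, 5m and 18m. For differences of differences the counts and their ranges over these alternatives were 5 (5 to 49) and 0 (0 to 237) in SC, 4 (2 to 36) and 432 (77 to 869) in the input, 429 (0 to 1303) and 328 (16 to 629) in TH, and 0 (0 to 0) and 0 (0 to 1) in SYN; without single mice they were 0 to 17 and 0 to 4 in SC, 2 to 5 and 73 to 407 in the input, 1 to 1350 and 33 to 1282 in TH, and 0 in SYN. Library-size scaling moved the share of higher genes among those called from 49.0% to 25.4% and 48.2% to 20.5% in SC_SYN against SC_TH at 3w and 18m, from 44.6% to 24.6% and 45.5% to 23.8% in the inputs, from 48.8% to 59.4% in SC_SYN against input_SYN at 3w, and with age from 40.3% to 59.2% and 52.7% to 32.6% in input_TH and from 50.0% to 39.2% in SC_SYN from 3w to 5m. Input_SYN was the shallowest fraction, and there the intervals of Camk2d were the widest with age.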
